A study of Mus musculus with 6 samples.

Results

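The 10 genes of the Wnt and beta-catenin pathway described here were chosen by gene symbol: the DNA-binding factors Tcf7, Lef1 and Tcf7l2, their co-activator Ctnnb1, the destruction complex genes Axin1, Axin2, Apc and Gsk3b, and the co-receptor genes Lrp5 and Lrp6. All 10 have a row among the 53819 genes of the deposited count table. The 6 libraries are RNA of leukaemia cells sorted from mouse spleen, 3 with the genotype SLC6A6 KO (KO1, KO2, KO3) and 3 with SLC6A6 WT (WT1, WT2, WT3). In both groups the mice had been transplanted with primary leukaemia cells that carry BCR-ABL and NUP98-HOXA9, a pair of fusion genes used to model blast crisis of chronic myeloid leukaemia (bcCML). Slc6a6 encodes the taurine transporter, and the series title speaks of its knock-down while the sample labels say KO. The sources used here do not give the age and sex of the mice, the KO allele, the sorting gate, or whether the 3 libraries of a group come from separate mice, so p-values measure the spread between these libraries, which may be technical.

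In canonical Wnt signalling, a Wnt ligand binds a Frizzled receptor and the co-receptors LRP5 and LRP6. Without ligand, beta-catenin (Ctnnb1) is held in a complex of AXIN, APC and the kinase GSK3 beta, is phosphorylated there and is degraded; with ligand the complex is inhibited and beta-catenin enters the nucleus, where it works with TCF and LEF factors. Beta-catenin is known for its part in the self-renewal of leukaemia stem cells, and Tcf7 and Lef1 for the development of T cells and other lymphocytes. The activity of beta-catenin is set largely by the stability of its protein, which transcript counts do not show.

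Library totals lay between 42829294 and 49537098 counts, and levels are given as CPM, counts per 1000000 of the TMM-scaled library total, in the order of libraries 1, 2 and 3 of each group. The targeted gene Slc6a6 stood at 125, 132 and 133 CPM in KO and at 151, 145 and 145 CPM in WT, with an adjusted p of 0.196 in edgeR's quasi-likelihood test, and whole-gene counts do not show whether the transcript is altered. The Y-linked gene Eif2s3y had 85.6 to 104 CPM in the KO libraries and 0 counts in the WT libraries, while Xist, the RNA of the inactive X chromosome, had 0.305 to 4.41 CPM in KO and 160 to 197 CPM in WT (adjusted p = 0.0170 in edgeR's test). The sex of the cells and the genotype label therefore cannot be told apart in any comparison here. The 10 pathway genes lie on autosomes. Of the 14 markers of myeloid progenitors and of this leukaemia, the summed level was 463 to 546 CPM in KO and 392 to 683 CPM in WT, and Hoxa9 stood at 97.3 to 108 CPM in KO and 129 to 140 CPM in WT. Kit, a receptor tyrosine kinase of blood progenitors and mast cells, was the 1 of the 14 called by edgeR, at 75.9, 74.8 and 44.6 CPM in KO and 25.6, 9.90 and 18.1 CPM in WT (log2 fold change 1.86 ± 0.37, adjusted p = 0.0450). DESeq2 and limma-voom called Kit too, and edgeR's call was lost without any 1 library (adjusted p from 0.0520 to 0.156). DESeq2 also called Hoxa9, Cd34 and Flt3 lower. Over all genes tested, edgeR called 1.64% higher and DESeq2 called 6.04% lower. The granule gene Mpo had 0, 1.65 and 21.8 CPM in KO and 53.1, 11.8 and 8.27 CPM in WT, and Elane was likewise at 0 counts in KO1. In these bulk samples, fewer cells of a type and less RNA per cell cannot be told apart.

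Tcf7 was the single gene of the 10 that rose past the threshold in edgeR's quasi-likelihood test, an adjusted p below 0.05 after Benjamini-Hochberg correction over the 15232 genes tested. DESeq2 called 5 of the 10 higher at the same threshold (Tcf7, Tcf7l2, Ctnnb1, Apc and Lrp6), where it called 7.06% of all genes higher. limma-voom called 0 of the 10, where it called 1.34% of all genes higher. In edgeR's test 6 of the 10 had an unadjusted p below 0.05, where 22.0% of all genes tested did. Over all genes tested, edgeR called 3.56%, 1.64% higher and 1.92% lower in KO. Tcf7l2, Ctnnb1, Axin2, Apc and Lrp6 also had every KO value above every WT value without passing edgeR's test, and 13.6% of all genes tested showed this order. Tcf7, Tcf7l2 and Axin2 would not have passed the low-count filter on the WT libraries' counts, so their presence among the tested genes already depends on the difference. Lef1 was the one gene of the 10 with a lower fitted level in KO, and it did not pass.

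**Figure D1:**
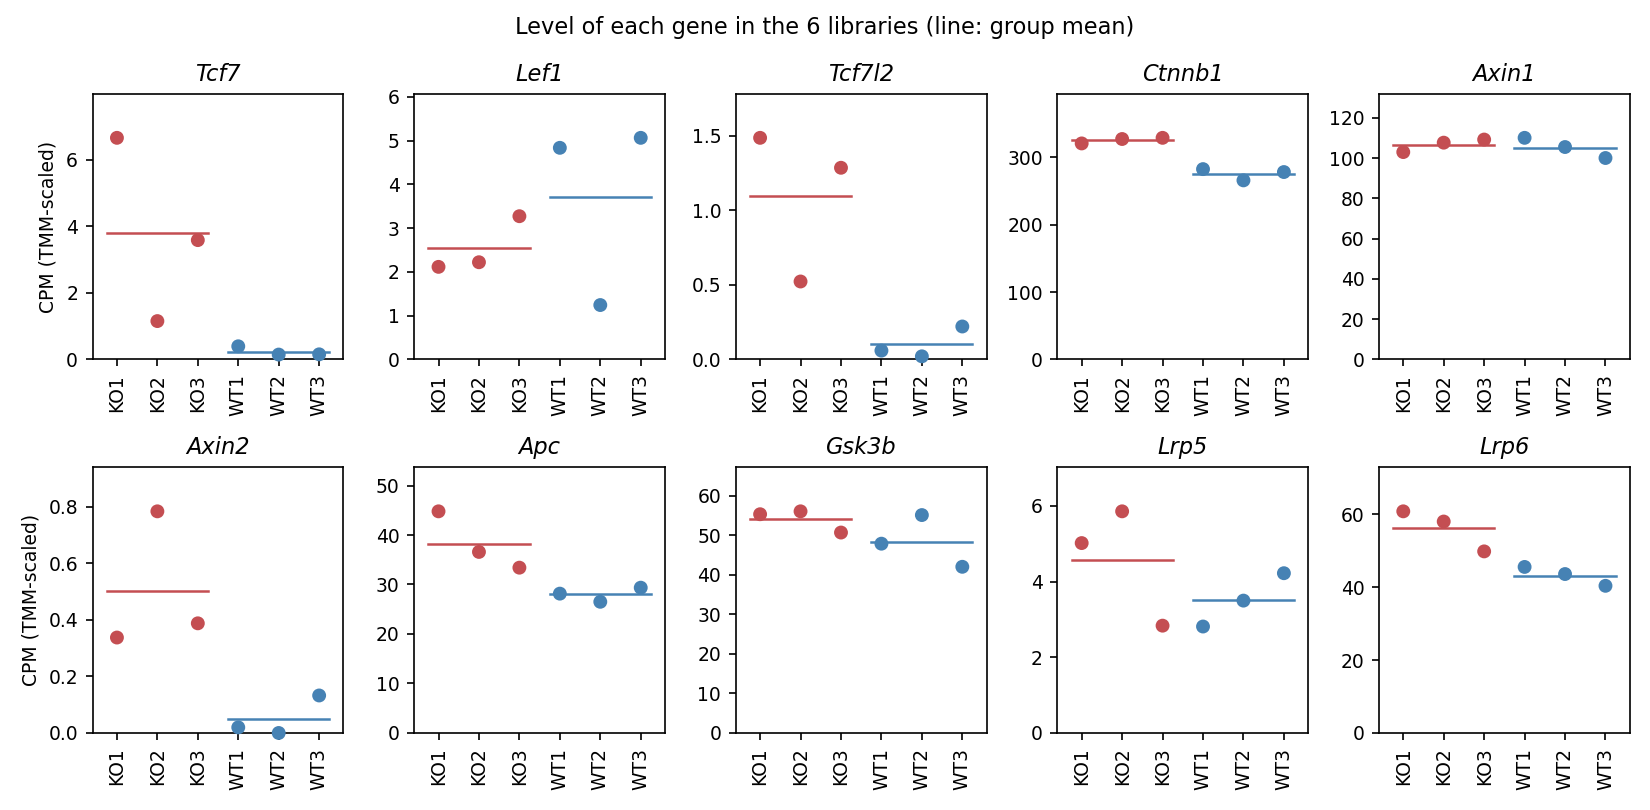
CPM (TMM-scaled, linear axis from 0) of each of the 10 genes in each library, with KO libraries in red and WT libraries in blue, each point 1 library and each line the group mean. Tcf7 ranges from 1.15 to 6.66 CPM in KO and from 0.148 to 0.396 CPM in WT, while the Axin1 points of both groups lie between 100.1 and 110.1 CPM.

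The TCF and LEF factors read the pathway at DNA, through a core that begins CTTTGA. The 250 bases before RefSeq start sites (GRCm38.p6) were searched for these letters on both strands, where the other strand reads TCAAAG. Of 32851 such windows, 13.8% hold the core at least once. For 6 of the 10 genes the table gives windows, 12 in all, and 2 of the 12 hold it. The 3 windows are printed 5′ to 3′ on the gene's strand, since Axin2 is the feedback target of the pathway and Tcf7l2 and Lef1 are TCF/LEF genes themselves, with the core in capitals where it occurs and no capitals where it does not.
Axin2, chr11:108920099-108920348, plus strand: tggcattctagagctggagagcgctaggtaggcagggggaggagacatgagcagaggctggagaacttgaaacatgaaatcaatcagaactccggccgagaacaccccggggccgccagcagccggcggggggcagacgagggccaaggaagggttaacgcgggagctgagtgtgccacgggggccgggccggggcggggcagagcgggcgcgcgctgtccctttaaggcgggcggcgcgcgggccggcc
Tcf7l2, chr19:55741560-55741809, plus strand: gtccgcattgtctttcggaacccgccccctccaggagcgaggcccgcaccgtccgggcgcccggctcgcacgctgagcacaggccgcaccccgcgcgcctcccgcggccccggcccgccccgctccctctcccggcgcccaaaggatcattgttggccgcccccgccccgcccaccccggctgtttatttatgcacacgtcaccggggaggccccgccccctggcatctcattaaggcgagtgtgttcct
Lef1, chr3:131156044-131156293, plus strand: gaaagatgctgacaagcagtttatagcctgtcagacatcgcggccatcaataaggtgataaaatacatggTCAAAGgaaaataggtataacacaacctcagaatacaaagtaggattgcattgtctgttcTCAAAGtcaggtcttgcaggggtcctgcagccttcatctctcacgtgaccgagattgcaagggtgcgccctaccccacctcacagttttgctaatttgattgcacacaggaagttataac
The Lef1 window is the one of 4 Lef1 start sites that holds the core, which begins 180 and 120 bases before the start. The other window with the core is that of Gsk3b, with 1 match 77 bases before the start. None of the 250 bases in the printed windows is exonic in GENCODE M21. A match of letters is a description and not a bound site.

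Tcf7 encodes TCF1, a TCF/LEF factor best known from T cells and their progenitors. It had 6.66, 1.15 and 3.59 CPM in KO and 0.396, 0.148 and 0.155 CPM in WT. The groups did not overlap, the KO values were spread widely with KO1 highest and KO2 lowest, and the WT values rest on 20, 7 and 7 counts. The fitted level was 16.1-fold higher in KO (log2 fold change 4.01 ± 0.78, SE, n = 3 against 3, adjusted p = 0.0436 in edgeR's quasi-likelihood test). The call was lost without KO1 (adjusted p = 0.122, 10.03-fold), KO3 (0.110), WT1 (0.0712, 24.4-fold), WT2 (0.118) or WT3 (0.165), and it held without KO2 (0.0294). limma-voom gave an adjusted p of 0.112 and DESeq2 one of 5.99e-06.

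Tcf7l2 encodes TCF4, the TCF/LEF factor of the intestinal epithelium. It had 1.49, 0.523 and 1.28 CPM in KO and 0.0594, 0.0211 and 0.221 CPM in WT. All KO values were above all WT values, and the WT libraries hold 3, 1 and 10 counts of it. The fitted ratio was 10.7-fold, with a log2 fold change of 3.43 ± 0.89 and an adjusted p of 0.0841 in edgeR's test, and without 1 library the ratio ranged from 7.74-fold (without WT2) to 25.3-fold (without WT3). DESeq2 called it at an adjusted p of 0.00806.

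Lef1 encodes the factor that gave the family the second part of its name and is active in early lymphocytes. It had 2.12, 2.22 and 3.27 CPM in KO and 4.83, 1.24 and 5.06 CPM in WT. WT1 and WT3 lay above all KO libraries and WT2 below all of them, so the groups overlapped. The log2 fold change was −0.55 ± 0.54 with an adjusted p of 0.610 in edgeR's test. Without 1 library it ranged from −0.97 (without WT2, adjusted p = 0.203) to −0.27 (without WT3).

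The mix of TCF/LEF transcripts was compared within each library. Because transcripts differ in length, the mix was taken from CPM per kilobase of exon (GENCODE M21) over Tcf7, Lef1, Tcf7l1 and Tcf7l2. Tcf7 took 86.1%, 58.5% and 72.0% of that sum in KO and 21.2%, 25.4% and 8.93% in WT. Lef1 took 8.17% to 33.6% in KO and 63.9% to 87.3% in WT. Tcf7l2 took 5.74% to 7.92% in KO and 0.950% to 3.82% in WT. The groups did not overlap for any of these 3 shares. Because the shares of a library add up to the whole, these are not separate results. The CPM of Lef1 itself overlapped between groups. Tcf7l1, the fourth gene of the family, had at most 4 counts in any library and was not tested. The whole family summed to 2.95, 0.752 and 1.90 CPM per kb in KO and 0.713, 0.222 and 0.660 CPM per kb in WT, so the lowest KO value, in KO2, was only slightly above the highest WT value, in WT1.

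**Figure D2:**
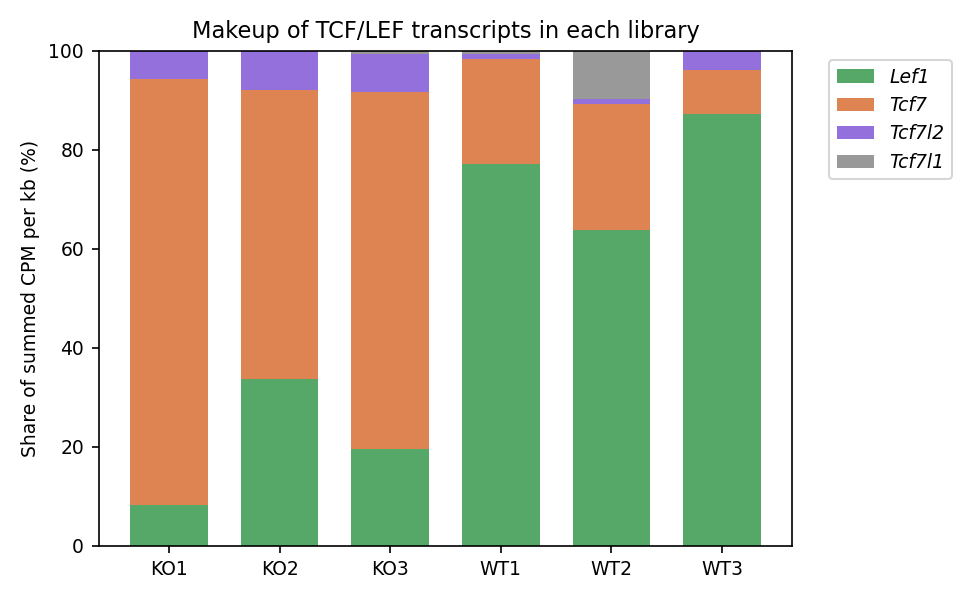
Share of each TCF/LEF gene in the summed CPM per kb of exon (percent, stacked bars, 1 bar per library). Lef1, in green, takes 63.9% to 87.3% of the bar in the WT libraries, and Tcf7, in orange, takes 58.5% to 86.1% in the KO libraries.

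Within a library, the ratio of Tcf7 to Lef1 counts does not depend on scaling. It was 3.15, 0.520 and 1.10 in KO and 0.0820, 0.119 and 0.0306 in WT. The mean log2 ratio was 0.28 ± 1.31 in KO and −3.91 ± 1.01 in WT (SD, n = 3 each). These genes were set side by side with their levels known, so the ratio is a description. KO2 had the lowest ratio of its group and still stood above the highest WT ratio.

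Markers of other blood cells were measured beside these genes. Of 18 T cell markers 16 were tested, and edgeR called 6 higher (Cd2, Cd3d, Cd3e, Cd4, Trbc1 and Trbc2) and none lower. DESeq2 called 11 higher and 1 lower, Lat, and limma-voom 3 higher (Cd2, Cd3e and Cd4). Over all genes tested, edgeR called 1.64% higher, DESeq2 7.06% and limma-voom 1.34%, and DESeq2 called 6.04% lower. Of the 16, 14 would not have passed the low-count filter on the WT libraries' counts, edgeR's 6 among them, so their calls already depend on a high level in KO. Cd4, the co-receptor of helper T cells, had 1.35 to 2.11 CPM in KO and 0 counts in all WT libraries, where 3 counts correspond to 0.0594 to 0.0663 CPM. Cd2, an adhesion receptor of T and NK cells, had 1.07 to 1.85 CPM in KO and 0.0198 to 0.111 in WT. Themis, a thymocyte gene, was also at 0 counts in the WT libraries. The summed level of the 18 markers was 145 to 162 CPM in KO and 161 to 178 in WT because of Lat, an adaptor gene that mast cells and megakaryocytes also use. Without Lat, left out after its values were seen, the sum of the other 17 was 41.2, 12.9 and 32.1 CPM in KO and 1.98, 1.50 and 1.66 CPM in WT.

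Of 10 macrophage markers edgeR called 3 higher (Cx3cr1, Mrc1 and Csf1r), DESeq2 8 and limma-voom 2 (Cx3cr1 and Mrc1), with none lower. The sum of the 10 was 114 to 186 CPM in KO and 35.1 to 54.3 CPM in WT. For this and the next lists, the shares of all genes called higher were again 1.64% in edgeR, 7.06% in DESeq2 and 1.34% in limma-voom. Among the 13 listed B cell markers, of which 9 were tested, edgeR called Cd79b and Blk higher. limma-voom called Cd79b but not Blk, and no tool called any lower. The sum of the 13 was 59.7 to 158 CPM in KO and 6.87 to 41.0 CPM in WT, and Pax5 was at 0 counts in WT. Of the 9 tested, 5 would not have passed the low-count filter on the WT libraries' counts, Blk among them. Of 6 tested NK and innate lymphoid markers of 9 listed, edgeR and limma-voom called 1 higher, Gata3, and DESeq2 3. On the WT libraries' counts 3 of these 6, Gata3 among them, would not have passed the filter. Calls of such markers already depend on a high level in KO. Gata3 had 0.523 to 1.02 CPM in KO and at most 0.0221 CPM in WT, and the sum of the 9 overlapped (710 to 1036 CPM in KO, 694 to 853 in WT). None of 11 erythroid markers passed edgeR's test, with 7 at an unadjusted p below 0.05 (22.0% of all genes tested were), 1 called by DESeq2 and 0 by limma-voom; their sum was 9588 to 31858 CPM in KO and 4153 to 13720 CPM in WT, which overlap. Of 11 stromal and endothelial markers, Col3a1, Dcn, Pdgfra and Cdh5 were at 0 counts in all 6 libraries, and the 3 tested gave 0 calls in edgeR and limma-voom, 1 at an unadjusted p below 0.05 and 1 call in DESeq2, Tek. The part of these cells in the levels of Tcf7, Tcf7l2 and Axin2 was not tested.

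**Figure D3:**
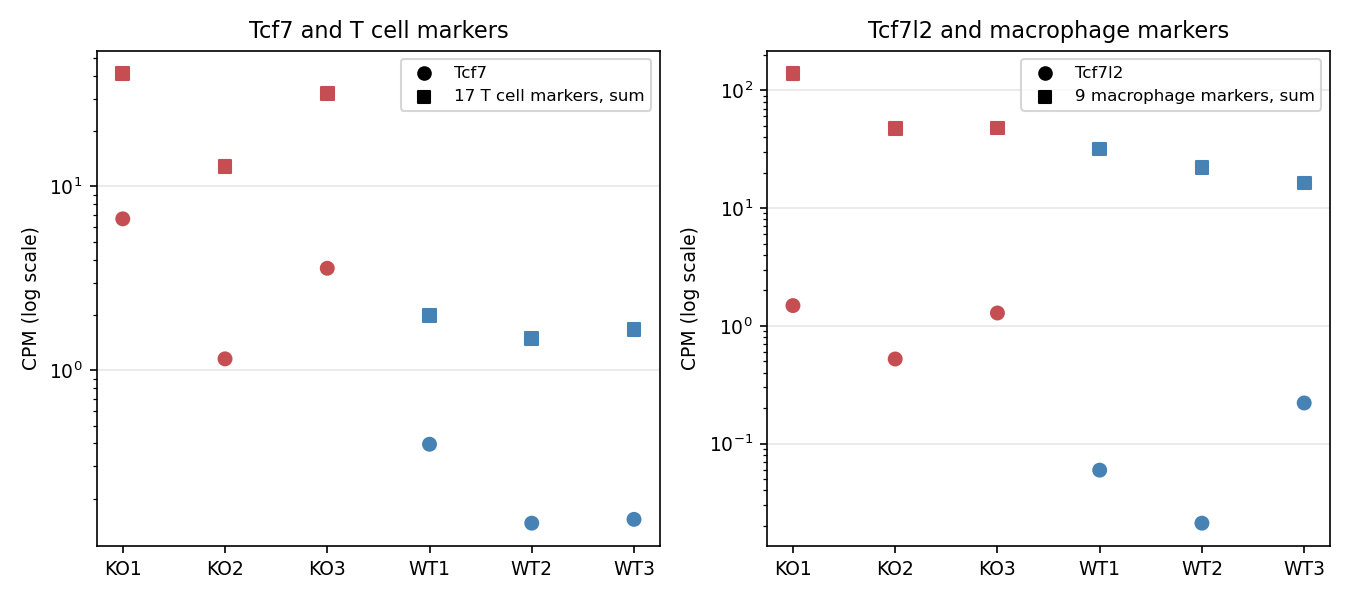
CPM on a log axis in each library (KO red, WT blue). Left, Tcf7 (circles) and the sum of 17 T cell markers without Lat (squares); right, Tcf7l2 (circles) and the sum of 9 macrophage markers without Cx3cr1, the most abundant one (squares). KO2 has the lowest Tcf7, Tcf7l2 and T cell sum of the KO libraries. Tcf7l2 in WT3, at 0.221 CPM from 10 counts, is the highest of the WT libraries. The macrophage sum in WT3, at 16.3 CPM, is the lowest of the WT libraries. Among the KO libraries, KO1 has the highest Tcf7l2, at 1.49 CPM, and the highest macrophage sum, at 140 CPM. KO2 has the lowest macrophage sum of KO, at 47.7 CPM, close to KO3 at 47.9 CPM. Any link between the genes and the sums was not tested.

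Ctnnb1, which encodes beta-catenin, was the most abundant of the 10 genes. It had 321, 327 and 329 CPM in KO and 283, 266 and 278 CPM in WT. The spread within each group was small and the groups did not overlap. The difference was 18.2% (log2 fold change 0.24 ± 0.06, adjusted p = 0.0906 in edgeR's test, 0.00952 in DESeq2).

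Among the destruction complex genes, the scaffold genes Axin1 and Axin2 stood far apart. Axin1, which is made whether or not the pathway is active, had 103, 108 and 109 CPM in KO and 110, 106 and 100.1 CPM in WT. The groups overlapped throughout, with a log2 fold change of 0.02 ± 0.08 and an adjusted p of 0.919 in edgeR's test. Axin2, a feedback inhibitor that is itself a widely used target of beta-catenin, had 0.338, 0.784 and 0.388 CPM in KO and 0.0198, 0 and 0.133 CPM in WT. These values come from 15, 36 and 16 counts in KO and 1, 0 and 6 counts in WT, and a count of 0 in WT2 allows up to 0.0632 CPM. KO2, which had the least Tcf7 of its group, had the most Axin2. The log2 fold change of Axin2 was 3.27 ± 1.08 with an adjusted p of 0.143 in edgeR's test, and without 1 library the ratio ranged from 6.48-fold (without WT2) to 39.2-fold (without WT3).

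Apc encodes the large scaffold that holds beta-catenin for phosphorylation. It had 44.8, 36.6 and 33.4 CPM in KO and 28.2, 26.5 and 29.4 CPM in WT. All KO values were higher, with a log2 fold change of 0.45 ± 0.14 and an adjusted p of 0.124 in edgeR's test (0.0373 in DESeq2). Gsk3b encodes the kinase that marks beta-catenin for degradation and serves many other pathways. It had 55.3, 56.0 and 50.7 CPM in KO and 47.9, 55.1 and 42.0 CPM in WT. WT2 reached the KO values, and the log2 fold change was 0.16 ± 0.12 with an adjusted p of 0.506.

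The co-receptors were measured at unequal levels. Lrp6 had 60.8, 58.0 and 49.8 CPM in KO and 45.6, 43.6 and 40.4 CPM in WT. Every KO value was above every WT value, with a log2 fold change of 0.38 ± 0.11 and an adjusted p of 0.113 in edgeR's test (0.0317 in DESeq2). Lrp5, its close relative, had 5.02, 5.86 and 2.84 CPM in KO and 2.81, 3.50 and 4.22 CPM in WT. KO3 lay at the low end of the WT range, and the adjusted p was 0.584 at a log2 fold change of 0.38 ± 0.35. The ratio of Lrp5 to Lrp6 counts was 0.0569 to 0.101 in KO and 0.0617 to 0.105 in WT (exact two-sided permutation p = 0.80, where 0.10 is the smallest that 3 against 3 libraries allow).

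**Figure D4:**
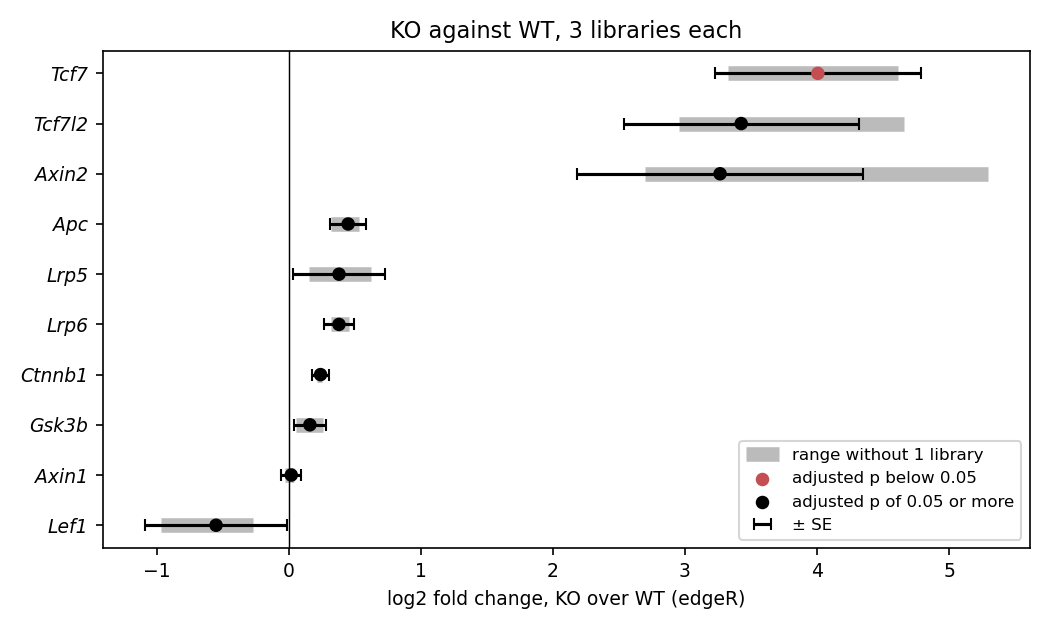
Fitted log2 fold change of KO over WT for the 10 genes (points, with bars of 1 SE) and the range of the fit when each library is left out in turn (grey). Tcf7, in red, is the one gene past the threshold in edgeR's test; Tcf7l2 at 3.43 and Axin2 at 3.27 come next with wider grey ranges, and the grey range of Axin1, −0.029 to 0.044, spans 0.

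Compared per kilobase of exon over the 6 libraries, Ctnnb1 was highest, at 51.2 to 63.4 CPM per kb, followed by Axin1 at 26.1 to 28.8. Gsk3b (4.27 to 5.70) and Lrp6 (2.95 to 4.45) overlapped, and Apc (1.64 to 2.78) lay below both. Tcf7 ranged from 0.0562 to 2.54, which overlapped the ranges of all the genes from Apc down. Lrp5 (0.289 to 0.601) and Lef1 (0.141 to 0.576) overlapped, as did Lef1, Tcf7l2 (0.0024 to 0.169) and Axin2 (0 to 0.142) at their ends. Between groups the order of these low genes differed: in KO the mean was 1.45 for Tcf7, 0.469 for Lrp5 and 0.289 for Lef1, while in WT it was 0.423 for Lef1, 0.361 for Lrp5 and 0.0887 for Tcf7.

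By the root mean square difference of centred log2(CPM + 0.5) over the 6 libraries, among 9523 other genes with a mean of at least 5 CPM, the profile of Tcf7 was nearest to Sdc3 (0.205), Vcam1 (0.435) and Vsir (0.502). Vcam1 is also among the macrophage markers. None of the T cell markers other than Lat reached a mean of 5 CPM, the highest being Trac at 1.93 CPM, so they could not be picked. The profile of Lef1 was nearest to Trpa1 (0.192), Gsap (0.260) and Epha2 (0.275), and that of Tcf7l2 to Map3k1 (0.0891), Mylip (0.163) and Socs3 (0.182). The offset of 0.5 pulls the lowest values of Tcf7l2 and Tcf7 together, so a near profile is not an equal ratio. Fitted ratios of KO over WT were 2.60-fold for Map3k1, 2.88-fold for Mylip and 2.23-fold for Socs3, against 10.7-fold for Tcf7l2. They were 8.73-fold for Sdc3, 6.41-fold for Vcam1 and 3.13-fold for Vsir, against 16.1-fold for Tcf7.

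The rest of the pathway was read from 10 lists by role, with 160 genes, of which 25 had no count in any library and 104 passed the filter. 1 of the 104 rose, Celsr2, and none fell in edgeR's test, where the background was 1.64% and 1.92%. At an unadjusted p below 0.05 there were 28 of the 104, where 22.0% of all genes tested were. DESeq2 called 11 higher and 8 lower, against 7.06% and 6.04% of all genes, and limma-voom called 0 higher and 1 lower, against 1.34% and 1.62%. The median log2 fold change of the 104 was 0.09, against 0.01 over all genes tested. Celsr2, a cadherin of planar cell polarity, had 1.10, 3.31 and 2.45 CPM in KO and 0.178, 0.190 and 0.309 CPM in WT. The groups did not overlap and the ratio was 10.04-fold (log2 fold change 3.33 ± 0.57, adjusted p = 0.0318). Celsr2, too, would not have passed the low-count filter on the WT libraries' counts. Its call held without KO1 (0.0447) and was lost without KO2 (0.0557), KO3 (0.0954), WT1 (0.0802), WT2 (0.0937) or WT3 (0.115).

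Transcripts of Wnt ligands were few. Of 23 ligand and R-spondin genes 10 had no count in any library and 2 passed the filter, Wnt9a, at 0.218 to 2.55 CPM in KO and 0.485 to 0.713 in WT, and Wnt2, at 0.0900 to 0.776 in KO and 0.0884 to 0.843 in WT. The genes for ligand export were expressed, with Wls, the carrier of Wnt proteins to the cell surface, at 65.4, 91.0 and 45.3 CPM in KO and 43.1, 32.6 and 38.6 CPM in WT (adjusted p = 0.121). Of 20 receptor genes 11 were tested; the most abundant were Mesd, the chaperone of LRP5 and LRP6, at 108 ± 3.81 CPM in KO and 135 ± 5.12 CPM in WT (SD, n = 3 each), and Ryk, a kinase-like Wnt receptor. Mesd had every KO value below every WT value, the opposite order to Lrp6, at an adjusted p of 0.0653 in edgeR's test. Over all genes tested, 14.4% had every KO value below every WT value. Of 14 genes for secreted inhibitors and the Kremen receptors of DKK proteins 3 were tested, and Kremen1, a membrane receptor, and Sfrp4, a secreted decoy for Wnt proteins, were the highest, at 9.06 and 6.75 CPM over the 6 libraries. In these 4 lists edgeR's test called 0 of 19 genes, with 3 at an unadjusted p below 0.05, where 22.0% of all genes tested were. DESeq2 called Wls higher and Tmed5 and Mesd lower, against 7.06% and 6.04% of all genes, and limma-voom called 0.

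Of 9 signal relay genes, 21 further destruction complex genes and 22 nuclear partners tested, edgeR and limma-voom called none and DESeq2 called 0, 3 and 3. Over all genes, DESeq2 called 7.06% higher and 6.04% lower. In edgeR's test 0, 5 and 7 had an unadjusted p below 0.05, where 22.0% of all genes tested did. Median log2 fold changes were −0.04, 0.05 and 0.11. Dvl1, an adaptor below Frizzled, stood at 56.3 CPM and Skp1, of the ubiquitin ligase for beta-catenin, at 543 CPM over the 6 libraries. DESeq2's calls named Amer1 higher and Fbxw11 and Siah1b lower among the destruction complex genes, and among the nuclear partners the Groucho co-repressor genes Tle2 and Tle4 higher and Tle1 lower.

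Target genes split in direction. Of 13 tested, edgeR called 0, and 6 had an unadjusted p below 0.05, where 22.0% of all genes tested did. Ccnd1 and Apcdd1 would not have passed the low-count filter on the WT libraries' counts, so their place among the 13 already depends on their level in KO. DESeq2 called 2 higher, Birc5 and Gadd45g, and 3 lower, Bambi, Ccnd2 and Myc, against 7.06% and 6.04% of all genes. limma-voom called 1 lower, Bambi, against 1.62% of all genes. The fitted ratio in edgeR's test was 1.43-fold for Birc5 (adjusted p = 0.140) and 1.63-fold for Gadd45g (adjusted p = 0.149). The median log2 fold change of the 13 was 0.09, with 8 positive and 5 negative values. Myc, a target in the gut, had 293, 368 and 362 CPM in KO and 415, 461 and 460 CPM in WT, every KO value lower, at an adjusted p of 0.0954. Ccnd2, a D-type cyclin, had 300.2, 243 and 262 CPM in KO and 396, 374 and 341 CPM in WT, again lower in each KO library, at an adjusted p of 0.0586. Many other signals also drive Myc and Ccnd2. Every KO value was lower for 3 of the 13, Myc, Ccnd2 and Bambi, where 14.4% of all genes tested showed this order. Every KO value was higher for 3, Ccnd1, Birc5 and Jun, where 13.6% of all genes tested did. Ccnd1, another D-type cyclin, had 0.923, 0.348 and 0.606 CPM in KO and 0.198, 0.190 and 0.177 CPM in WT. Its fitted ratio was 3.29-fold (adjusted p = 0.142 in edgeR's test). Of the 4 cadherin and catenin adhesion genes tested, edgeR, DESeq2 and limma-voom called 0, with 0 at an unadjusted p below 0.05. Of 16 genes of the polarity and calcium branches, Celsr2 was the single call in edgeR, with a median log2 fold change of 0.25. At an unadjusted p below 0.05 there were 7, where 22.0% of all genes tested were. DESeq2 called 5 higher, where it called 7.06% of all genes higher, and limma-voom called 0. Of DESeq2's 5, Celsr2 and Camk2d would not have passed the low-count filter on the WT libraries' counts.

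**Figure D5:**
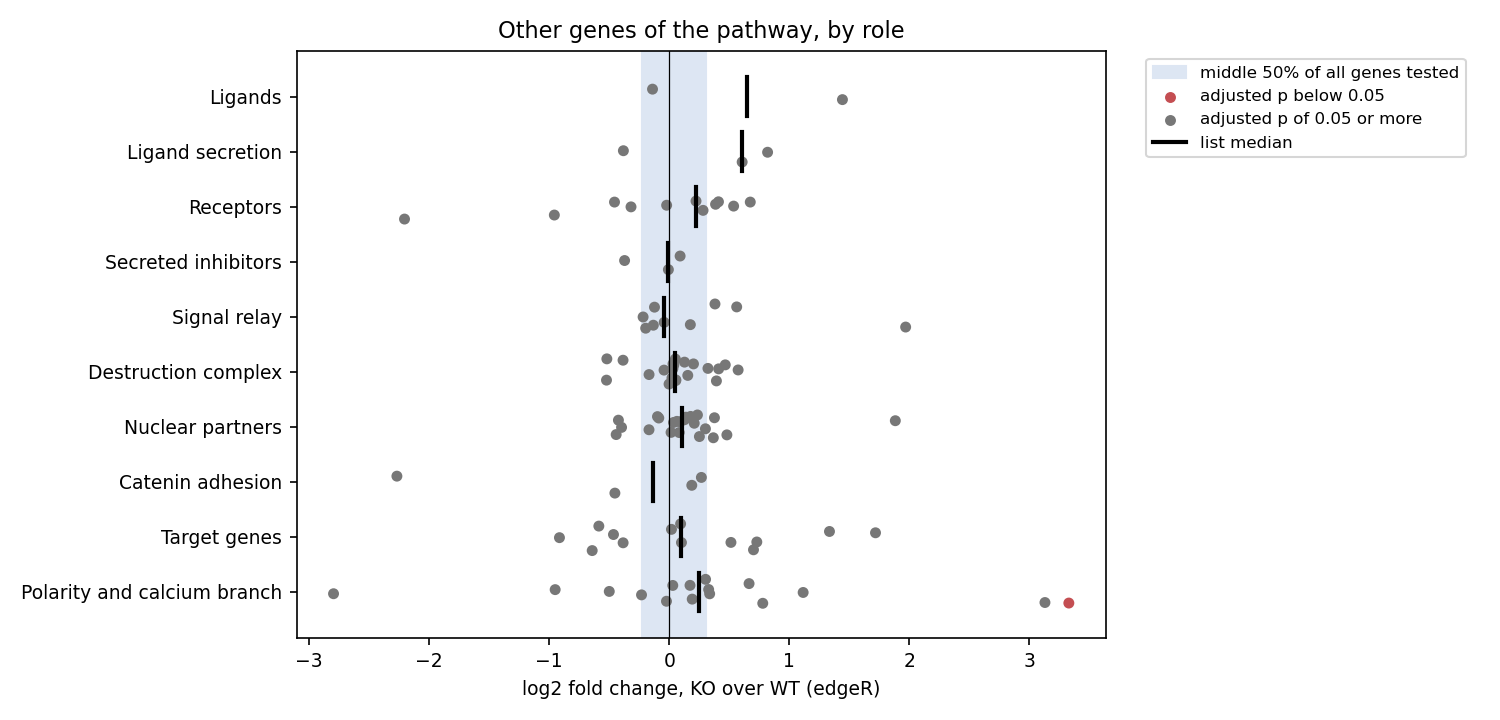
Log2 fold change of KO over WT for the 104 tested genes of the 10 role lists, 1 point per gene, jittered vertically; black lines are list medians and the blue band spans the middle 50% of all 15232 genes tested (−0.23 to 0.31). Celsr2, in red at 3.33 in the polarity and calcium list, is the one gene past the threshold in edgeR's test.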

How the data were processed

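The deposited values are counts of reads per gene symbol, 1 column per library, and no column was left unused. The tools named in the submitters' processing notes are featureCounts, Subread 2.0.1, STAR 2.7.9a and fastp 0.23.1; the sources used here do not give their parameters, the build or the annotation. Per the labels' protocols, SMARTer pre-amplification was followed by Nextera XT tagmentation, which marks neither strand nor molecules, so overlapping antisense reads are included and count limits cover counting error only.

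Genes passed filterByExpr by group (minimum count 10, minimum total 15). Libraries were scaled by TMM, and KO was compared with WT by the quasi-likelihood F test (robust, no covariate) in edgeR 4.0.16 under R 4.3.3, with Benjamini-Hochberg adjustment over all 15232 genes and a threshold of 0.05. Each SE is the log2 fold change divided by the square root of F. Code was tested on simulated counts. Exon lengths are unions from GENCODE M21; promoter windows are RefSeq's. A count of 0 was given a limit of 3 counts. No pair of libraries within a group agreed within sampling noise.

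The members and lists were chosen with earlier results of these data known. Named were the 10 genes, list genes past the threshold (up to 4 by p), the 2 most abundant of each list, the 3 nearest profiles for Tcf7, Lef1 and Tcf7l2, and up to 2 markers per list by p; other genes were named after their values were seen. Alternatives were other scalings, filters and tests (DESeq2 1.42.0, limma-voom 3.58.1), the replicate block and each library left out. The values of 1 B cell marker are not reported here.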

Additional observations from a re-analysis of the deposited data

How the results depend on the processing

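Over all genes, 250 higher and 293 lower calls became 1075 and 920 with DESeq2, 8 and 20 with the replicate number as a block, and 13 to 371 higher and 29 to 247 lower without 1 library. Of the 10 genes, 1 was called higher, against 5 with DESeq2 (Apc, Ctnnb1, Lrp6, Tcf7 and Tcf7l2), 0 with limma-voom, 0 with the replicate block and 0 to 1 without 1 library. In the 10 role lists, 1 higher call became 11 with DESeq2, 0 with limma-voom, 0 with the block and 0 to 1 without 1 library, and 0 lower calls became 8 with DESeq2, 1 with limma-voom, 2 when genes had to reach 1 CPM in 3 libraries (Bambi and Ccnd2) and 0 to 1 without 1 library. The log2 fold change of Tcf7 was 3.76 with limma-voom and 3.86 with the replicate block (adjusted p = 0.0795), where its call was lost, and 3.33 to 4.61 without 1 library. With DESeq2, Tcf7l2 at 3.46, Ctnnb1 at 0.24, Apc at 0.45 and Lrp6 at 0.38 passed the threshold. Axin1 had a log2 fold change from −0.029 (without WT3) to 0.044 (without KO1), and −0.0056 without KO3, so its sign is not fixed, and the other 9 genes kept their sign in every alternative that tested them. The same 1 CPM filter left Tcf7l2 and Axin2 untested. The cause of these changes was not tested. Deviations of same-numbered KO and WT libraries correlated at 0.05, −0.24 and −0.09, and not every library correlated best with its own number. No label says what the numbers mark. With 3 libraries per group, these correlations cannot show whether same-numbered libraries share an animal, litter or day. Depth limits the WT levels of Axin2, Tcf7l2 and Tcf7, which rest on 7, 14 and 34 counts over the 3 WT libraries.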
